A study of Homo sapiens with 2 samples.

Results

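The HSP90, HSP70 and HSP60 chaperones described here are 10 genes chosen by symbol: HSP90AA1, HSP90AB1, HSPA1A, HSPA4 and HSPA8 of the cytosol, HSP90B1 and HSPA5 of the endoplasmic reticulum (ER), and HSPA9, HSPD1 and HSPE1 of mitochondria. All 10 were among the 13075 genes of the deposited table. The RNA came from HEK293, an established line of human embryonic kidney origin, at passage 15, after transfection with FLAG-tagged TOP3B bearing the R338W change. TOP3B, a type IA topoisomerase, can cut and rejoin RNA as well as DNA, and the R338W change is known to leave it trapped on the strand it has cut. The series set out to find RNAs held in such complexes. The INPUT group was 1 library of lysate RNA with no antibody step, and the RIP group (RNA immunoprecipitation, without crosslinking) was 1 library of RNA recovered with the monoclonal anti-FLAG M2 antibody. Both groups thus carry the same tagged protein, and cells without it were not analysed here. With 1 library in each group no difference below has a replicate check, and no test was possible. "Higher" and "lower" therefore describe these libraries only.

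Heat shock proteins fold new proteins, keep damaged ones from clumping and hold signalling proteins in a state ready for activation. HSP70 proteins bind short hydrophobic stretches of a client in cycles of ATP hydrolysis, HSP90 proteins act later on clients that are nearly folded, and HSP60 with its lid HSP10 forms a closed barrel in mitochondria. Each compartment has its own set, encoded in the nucleus in every case here.

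The coding sequences of some members end in a short tail with a known role, but these ends do not define the compartment. Printed are the last 42 coding bases before the stop codon, from the GENCODE transcripts on GRCh38, with the last 4 codons in capitals. In HSP90AA1, HSP90AB1, HSPA1A and HSPA8 those codons encode the tail that docks co-chaperones with TPR domains. HSPA4, also cytosolic and not printed, lacks that tail.
HSP90AA1 (chr14:102081715-102081756, minus strand): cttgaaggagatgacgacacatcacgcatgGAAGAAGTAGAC
HSP90AB1 (chr6:44253554-44253595, plus strand): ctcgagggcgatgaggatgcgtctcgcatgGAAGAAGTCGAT
HSPA8 (chr11:123057737-123057778, minus strand): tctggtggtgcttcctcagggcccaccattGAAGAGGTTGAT
HSPA1A (chr6:31817638-31817679, plus strand): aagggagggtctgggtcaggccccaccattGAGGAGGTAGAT
HSPA1B (chr6:31829832-31829873, plus strand): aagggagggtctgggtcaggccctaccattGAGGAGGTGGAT

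In HSP90B1 and HSPA5 the last 4 codons encode the signal that returns escaped proteins to the ER. The mitochondrial HSPD1 and HSPE1 have neither tail, nor does HSPA9, which is not printed. The stretch of HSP90B1 is split over an intron.
HSP90B1 (chr12:103947416-103947659, plus strand): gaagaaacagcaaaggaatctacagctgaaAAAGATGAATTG
HSPA5 (chr9:125236595-125236636, minus strand): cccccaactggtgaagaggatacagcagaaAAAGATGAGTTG
HSPD1 (chr2:197487049-197487090, minus strand): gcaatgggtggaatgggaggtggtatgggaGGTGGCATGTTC
HSPE1 (chr2:197503215-197503256, plus strand): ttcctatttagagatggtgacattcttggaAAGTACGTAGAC

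The table does not name its unit. Values were taken as FPKM (fragments divided by transcript length and library size), a scale on which genes can be compared. Where 2 values are given for a gene, the input comes first. A pseudocount of 1 FPKM was added to both values before each log2 ratio of RIP to input was formed. Ratios are given against 11990 genes that reached a floor of 5 FPKM in either library. Depth was estimated from the steps of low values at 24700000 fragments for the RIP and 15150000 for the input, with a search range chosen after others had been tried. The first search, with coarser steps, gave 8560000 and 12300000 fragments, with 39.2% and 37.5% of its genes within 0.15 of a whole fragment. Later ranges gave between 16350000 and 22700000 for the RIP and 14850000 or 14950000 for the input, so the depth of the RIP is uncertain. TOP3B itself measured 15062 FPKM in the input and 30666 in the RIP, a log2 ratio of 1.03. Of 10 genes listed as typical of HEK293, 8 were in the table, whereas PAX2 and LHX1 were not. Of 10 kidney tubule markers 1 was in it (LRP2, at 1.96 FPKM in the input and 5.49 in the RIP), and of 12 liver and blood markers 0. How low genes were removed from the table is not stated.

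Most chaperone mRNAs had higher values in the RIP than in the input, and HSPE1 lay furthest the other way. Of the 10 genes, 8 had ratios above 0, as did 58.7% of all genes, and the same 8 lay above the median gene. The median log2 ratio over the 10 was 0.50, beside 0.13 over all 11990 genes, whose quartiles were -0.25 and 0.50. At a limit of 2-fold, 1 of 10 was higher in the RIP, beside 4.90% of all genes, and 0 were lower, beside 2.50%. The summed FPKM of the 10 was 3155 in the input and 4621.6 in the RIP, or 0.722% and 0.940% of the sum over nuclear coding genes without TOP3B.

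**Figure D1:**
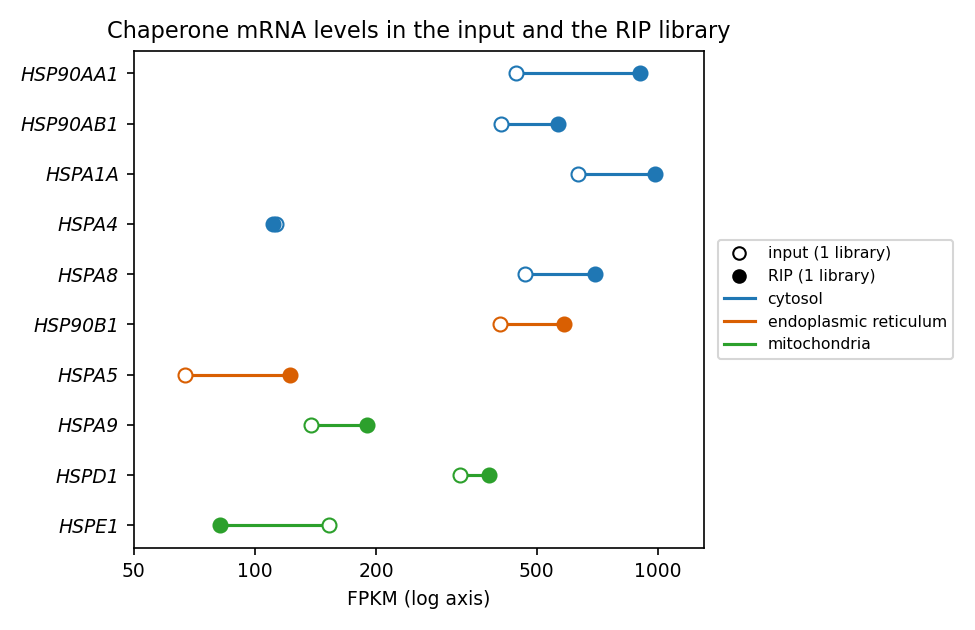
FPKM of the 10 chaperone genes on a log axis, with an open point for the input library, a filled point for the RIP library and colour for the compartment. In 8 genes the filled point lies to the right, in HSPA4 both points nearly coincide at 113 and 111, and in HSPE1 the order is turned, at 153 in the input and 81.7 in the RIP.

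HSP90AA1, the stress-inducible cytosolic HSP90, had the highest ratio of the 10. It stood at 445 FPKM in the input against 904 in the RIP, 2.03-fold higher, a log2 ratio of 1.02. Of all genes, 95.5% had a lower ratio, and its rank by level among 11222 nuclear coding genes was 126 in the input and 50 in the RIP. The call at 2-fold was narrow. With the median gene set to 0 the log2 ratio was 0.895, and with libraries scaled to nuclear coding genes without TOP3B it was 0.853, both short of the limit. The gene lies on chromosome 14 from 102080738 to 102139699, minus strand, and its principal transcript has 3379 nt in 11 exons.

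HSP90AB1, the constitutive cytosolic HSP90, was higher by less. It stood at 409 FPKM in the input against 565 in the RIP, a log2 ratio of 0.47, with 73.1% of genes lower. The coding sequences of these 2 HSP90 genes are 75.2% identical, and their principal transcripts share no run of 50 bases. Their proportion within a library does not depend on how the libraries are scaled. HSP90AA1 was at 1.09 times the level of HSP90AB1 in the input and at 1.60 times in the RIP, so the inducible gene stood further ahead in the RIP by a factor of 1.47. HSP90AB1 lies on chromosome 6 from 44246166 to 44253888, plus strand.

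HSPA8, the constitutive cytosolic HSP70 that also uncoats clathrin vesicles, and HSPA1A, the heat-inducible one, had similar ratios. HSPA8 stood at 469 FPKM in the input against 696 in the RIP, a log2 ratio of 0.57. HSPA1A stood at 633 and 985 FPKM, a log2 ratio of 0.64, and was the most abundant of the 10 in both libraries. HSPA8 was at 0.740 times the level of HSPA1A in the input and at 0.707 times in the RIP. The coding sequences of HSPA8 and HSPA1A are 73.3% identical, and no run of 50 bases of HSPA8 is found in HSPA1A. HSPA8 lies on chromosome 11 from 123057489 to 123063230, minus strand, and HSPA1A, a gene without introns, on chromosome 6 from 31815464 to 31817946, plus strand.

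The value of HSPA1A is uncertain because of its neighbour HSPA1B, whose coding sequence differs at 4 of 1926 positions, 2 of them within the printed ends. HSPA1B, at 31827735 to 31830255, lies 9788 bases downstream on the same strand. Of the windows of 100 bases in the HSPA1A transcript, 69.9% occur unchanged in HSPA1B, so fragments could be assigned to either. HSPA1B stood at 512 FPKM in the input against 892 in the RIP, a log2 ratio of 0.80. Summed, the pair stood at 1145 and 1877 FPKM, a log2 ratio of 0.71. If each gene is its principal transcript, of 2483 and 2521 nt, the sum hardly depends on how fragments were split. A shorter coding transcript of HSPA1A, of 1909 nt, is also annotated, and its part was not tested.

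HSPA4, an HSP110-type member that recharges HSP70 with ATP and lacks the tail shown above, had nearly equal values. It stood at 113 FPKM in the input against 111 in the RIP, a log2 ratio of -0.02. It lay below the median gene, with 39.6% of genes lower. HSPA8 was at 4.16 times the level of HSPA4 in the input and at 6.27 times in the RIP. HSPA4 has the longest principal transcript of the 10, 4825 nt, and lies on chromosome 5 from 133051962 to 133106449, plus strand.

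Both ER chaperones were higher in the RIP. HSPA5, also called BiP, the ER HSP70 that holds the stress sensors of the unfolded protein response inactive, stood at 67.1 FPKM in the input against 122 in the RIP. Its log2 ratio of 0.85 was the second highest of the 10, with 91.5% of genes lower, and its rank among nuclear coding genes was 1087 in the input and 598 in the RIP. HSP90B1, or GRP94, the ER HSP90, stood at 407 and 586 FPKM, a log2 ratio of 0.53. Relative to HSP90B1, HSPA5 was at 0.165 in the input and 0.209 in the RIP. HSPA5 lies on chromosome 9 from 125234853 to 125241330, minus strand, and HSP90B1 on chromosome 12 from 103930107 to 103953645, plus strand.

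The 3 mitochondrial chaperones had ratios on both sides of 0, with a median of 0.24, beside 0.57 for the 5 cytosolic ones and 0.69 for both of the ER. HSPA9, or mortalin, the HSP70 that pulls imported proteins into the matrix, stood at 138 FPKM in the input against 190 in the RIP, a log2 ratio of 0.46. Its gene lies on chromosome 5 from 138553756 to 138575724, minus strand. HSPD1, the HSP60 barrel, stood at 323 and 382 FPKM, a log2 ratio of 0.24, or 0.11 above the median gene. Its sign depended on the scaling: it was -0.04 when libraries were scaled to estimated fragments, a setting added after seeing the data. HSPE1, the HSP10 lid of that barrel, stood at 153 and 81.7 FPKM, 1.87-fold higher in the input, a log2 ratio of -0.90. Only 3.4% of all genes had a lower ratio than HSPE1, and its rank among nuclear coding genes was 348 in the input and 1024 in the RIP.

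HSPD1 and HSPE1, whose products work as 1 machine, thus stood in different proportion in the 2 libraries. HSPD1 was at 2.11 times the level of HSPE1 in the input and at 4.67 times in the RIP, a factor of 2.21. HSPA9 was at 0.899 times HSPE1 in the input and at 2.32 times in the RIP. These proportions hold whatever the scaling between libraries. With the median gene set to 0 HSPE1 had a log2 ratio of -1.025, and scaled to nuclear coding genes -1.065. Under either scaling HSPE1 was thus the 1 chaperone past 2-fold, by a narrow margin. Beside it, 3.75% of all genes were at least 2-fold lower after centring, and 487 of 11990 after scaling to coding genes.

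The genes HSPD1 and HSPE1 lie on opposite strands of chromosome 2, HSPD1 from 197486581 to 197516737 on the minus strand and HSPE1 from 197499994 to 197503457 on the plus strand. The annotated span of HSPE1 lies wholly within that of HSPD1. Of the HSPE1 principal transcript, 281 bases fall in an exon of any annotated HSPD1 transcript, and 54 in exons of the principal one. The library kit keeps strand, but whether the counting used it is not stated. Reads of that overlap could then be credited to either gene.

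**Figure D2:**
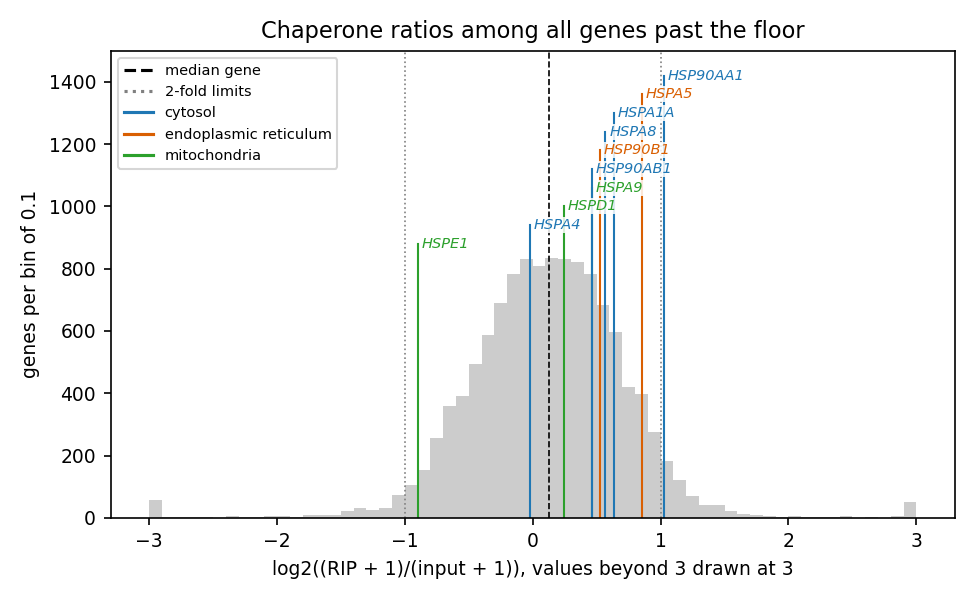
Log2 ratios of RIP to input for the 11990 genes with at least 5 FPKM in a library, as genes per bin of 0.1, with the 10 chaperones as coloured lines. HSP90AA1 lies just past the upper 2-fold limit at 1.02, HSPE1 just inside the lower one at -0.90, and HSPA4 at -0.02; the other 7 lie between the median gene at 0.13 and 0.85.

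The order of the ratios was compared with counting error alone. Each gene's fragments were computed from the estimated depth as if all came from its shortest annotated coding transcript, a basis chosen after seeing the data. This gives the fewest fragments among the coding transcripts. Other annotated transcripts, such as those with retained introns, were left out. These fewest fragments ranged from 252 for HSPA9 in the input to 42376 for HSPA1A in the RIP. The exact 95% binomial intervals of the log2 FPKM ratio ran from 0.96 to 1.09 for HSP90AA1, from 0.81 to 0.92 for HSPA5, from -0.08 to 0.04 for HSPA4 and from -1.06 to -0.75 for HSPE1. From HSPA1A through HSPA8, HSP90B1, HSP90AB1 and HSPA9 to HSPD1 each neighbouring pair had overlapping intervals, so the order of neighbours there is not resolved at this depth. The interval of HSPA1A takes its assigned fragments as given, although some could belong to HSPA1B. That of HSPA1B ran from 0.777 to 0.825, above that of HSPA8 (0.504 to 0.636) and overlapping that of HSPA5. The intervals of HSP90AA1, HSPA5, HSPA4 and HSPE1 did not overlap those of their neighbours, and those of HSP90AA1 and HSPE1 each held the 2-fold limit. With the depths of the first search the same neighbours overlapped, and the interval of HSPA9 widened most, to between 0.05 and 0.92. Intervals cover counting error only, and differences between cultures or precipitations were not measured.

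HSPE1 was also the member with the shortest mRNA, and short coding genes had a lower median ratio than longer ones. Its principal transcript has 950 nt, of which 309 are coding, whereas those of the other 9 have between 2455 and 4825 nt. The 508 nuclear coding genes with a principal transcript of at most 1000 nt had a median log2 ratio of -0.18, and the 9992 longer ones 0.16. Among the 508 short genes 15 had a lower ratio than HSPE1. The part of length in the ratio of HSPE1 was not tested.

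Among the 5406 coding genes with 2000 to 5000 nt, the length range of the other 9, the median was 0.17. HSP90AA1 exceeded 96.9% of these genes, HSPA5 93.1% and HSPA1A 83.8%, while HSPD1 exceeded 55.5% and HSPA4 35.6%. Against the 1009 coding genes with an input level between those of HSPA5 and HSPA1A, whose median was 0.05, HSP90AA1 exceeded 95.6% of genes and HSPE1 1.8%, and 4.76% of the genes were at least 2-fold higher and 0.297% at least 2-fold lower. GC content differed little among 9 members, with principal transcripts between 42.4% and 50.2%, and HSPA1A stood apart at 59.7%.

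**Figure D3:**
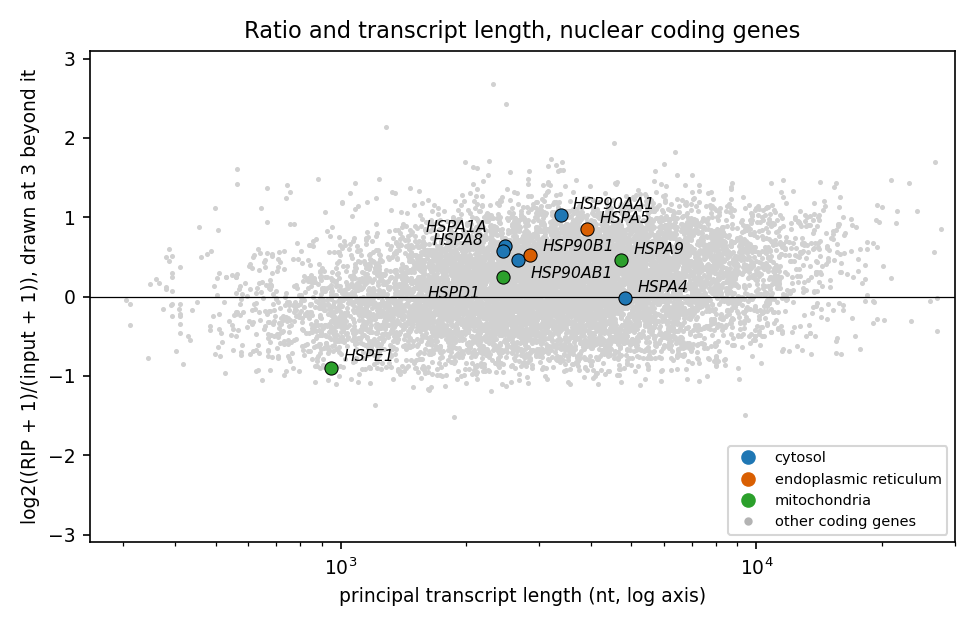
Log2 ratio of RIP to input against the length of the principal transcript (log axis) for nuclear coding genes, with the 10 chaperones coloured by compartment. HSPE1, at 950 nt, lies at the lower left, and the other 9, between 2455 and 4825 nt, span ratios from -0.02 for HSPA4 to 1.02 for HSP90AA1.

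The other heat shock proteins were spread about 0. Of 16 listed, 12 were measured, all within 2-fold, with 6 ratios above 0 and 6 below and a median of 0.02, under that of all genes. TRAP1, the mitochondrial HSP90, had the highest ratio at 57.6 FPKM in the input against 107 in the RIP (log2 ratio 0.88), followed by HSPA1B. HSPA2, a testis-enriched HSP70, stood at 6.04 and 10.1 FPKM. HSPH1 and HSPA4L, relatives of HSPA4, had log2 ratios of 0.05 and -0.01, and HYOU1, the ER relative, of 0.14.

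Lower levels in the RIP were seen for HSPA13 (23.9 and 15.1 FPKM, log2 ratio -0.63), an HSP70 of microsomes, and HSPA14 (60.4 and 49.6 FPKM, -0.28), which sits on the ribosome. Among genes with HSPB symbols HSPB1 stood at 39.8 FPKM in the input against 37.5 in the RIP, HSPB11 at 39.7 and 28.1, and HSPB8 at 6.73 and 4.28. HSPB8 passed the floor only through the input, so the floor favoured its direction. HSPA12A had a log2 ratio of 0.07. None of these 12 had a ratio as low as that of HSPE1.

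Annotated copies were looked for only by a chaperone's symbol followed by P, and 2 such pseudogenes were in the table. Copies with other symbols were not looked for. HSPE1P11 stood at 5.87 FPKM in the input against 3.67 in the RIP, and HSPE1P13 at 5.43 and 3.09, log2 ratios of -0.56 and -0.65. Both passed the floor only through the input, so their direction says nothing about HSPE1, and neither holds a run of 50 bases of the principal HSPE1 transcript. The readthrough gene HSPE1-MOB4, chosen after its values were seen, stood at 2.41 and 3.02 FPKM and shares exons with HSPE1, so fragments could be assigned to either.

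HSP90 co-chaperones, which load clients and time the HSP90 cycle, ranged from a log2 ratio of -0.93 to 1.46. All 25 listed were measured, with a median log2 ratio of 0.22, and 5 of 25 were at least 2-fold higher, beside 4.90% of all genes, and 0 lower, beside 2.50%. STIP1, or HOP, which joins HSP70 to HSP90 by the tails printed above, stood at 109 FPKM in the input against 302 in the RIP, a log2 ratio of 1.46 and the highest of the list. UNC45A, a myosin chaperone, stood at 30.6 and 71.3 FPKM. The others past 2-fold, named after their values were seen, were the phosphatase PPP5C (1.12), TSC1 (1.07) and AHSA2 (1.01). At the other end PTGES3, or p23, which steadies the closed HSP90 dimer, stood at 158 and 82.2 FPKM, a log2 ratio of -0.93, and ERP29, an ER protein also on the list, had -0.63. With the median gene set to 0, 2 of the 25 were at least 2-fold higher and 1 lower, beside 3.04% and 3.75% of all genes. A pseudocount of 5 FPKM gave 3 higher and 0 lower, beside 300 and 180 of 11990 genes. Scaling to estimated fragments, added after seeing the data, gave 1 higher and 1 lower, beside 228 and 693.

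As deposited, HSP70 partners all lay within 2-fold, beside 4.90% of all genes at least 2-fold higher and 2.50% at least 2-fold lower. Their counts above 0 stand beside 58.7% of all genes. Of 13 nucleotide exchange factors and regulators 8 had ratios above 0, with a median of 0.14, from BAG2 (8.30 FPKM in the input against 4.91 in the RIP) and BAG4 (13.0 and 8.22) to BAG1 (27.5 and 36.1) and GRPEL1 (24.7 and 34.7), which serves HSPA9 in mitochondria. BAG2 passed the floor only through the input, so the floor favoured its direction. Of 39 DNAJ proteins, which bring clients to HSP70, 34 passed the floor, 23 with ratios above 0, and their median was 0.20. With the median gene set to 0, 1 of these 34 was at least 2-fold lower, beside 3.75% of all genes. The other scalings also gave 1 lower. DNAJC19 (26.8 and 14.1 FPKM) and DNAJA2 (43.5 and 28.3) were the lowest, and DNAJC18 (13.9 and 24.4) and DNAJC1 (18.1 and 30.8) the highest.

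The CCT chaperonin, the cytosolic counterpart of the HSP60 barrel, had ratios close to 0. All 8 subunits were within 2-fold, with a median of 0.03, and 1 of 8 lay above the median gene, beside 8 of the 10 chaperones. CCT3 stood at 161 FPKM in the input against 261 in the RIP, a log2 ratio of 0.69, and TCP1 at 191 and 205, whereas CCT4 stood at 123 and 106 and CCT6A at 116 and 101. With 1 library in each group the difference between the families could not be tested.

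Genes of ER folding and the unfolded protein response lay around the median gene. Of 28 listed 26 passed the floor, all within 2-fold, with 16 ratios above 0, beside 58.7% of all genes, and a median of 0.13, equal to that of all genes. UGGT1, which checks glycoprotein folding, stood at 26.2 FPKM in the input against 50.5 in the RIP, and P4HB, a disulfide isomerase, at 192 and 327. PDIA6, another disulfide isomerase, stood at 111 and 79.6 FPKM, and XBP1, a transcription factor of the response, at 43.5 and 31.4.

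Mitochondrial folding factors and proteases had a median of 0.40 over 18 genes, 13 of them above 0. The 1 gene at least 2-fold higher is 5.6% of the list, near the 4.90% of all genes. SPG7, a protease subunit of the inner membrane, stood at 47.2 FPKM in the input against 109 in the RIP, and TRAP1, also on this list, was next. GRPEL2 (18.3 and 14.4 FPKM) and the protease CLPP (38.8 and 30.9) were the lowest, with log2 ratios of -0.33 and -0.32, and no gene of the list was as low as HSPE1. Heat shock factors, which switch on chaperone genes, and their binding partners had a median of 0.13 over 5 genes. HSF1 stood at 21.0 FPKM in the input against 23.5 in the RIP, HSF2BP at 3.40 and 5.50, HSF2 at 32.6 and 29.1 and HSBP1 at 85.7 and 59.6. HSF2BP passed the floor only through the RIP, so the floor favoured its direction.

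**Figure D4:**
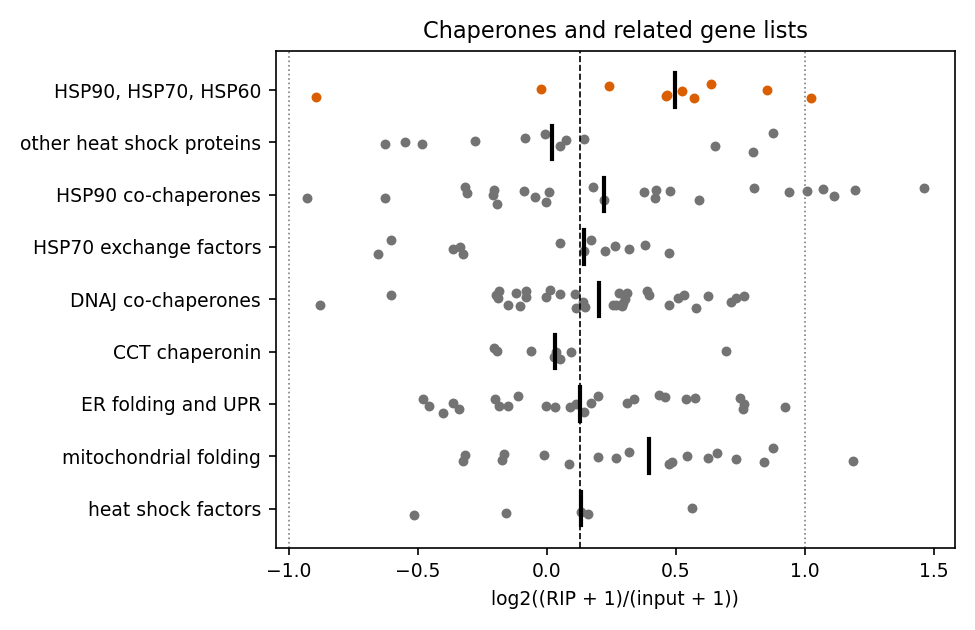
Log2 ratios of RIP to input for the 10 chaperones (orange) and 8 related lists (grey), each point 1 gene past the floor, with a bar at each list's median, a dashed line at the median gene and dotted lines at 2-fold. The medians run from 0.02 for other heat shock proteins to 0.50 for the 10 chaperones, and 5 HSP90 co-chaperones lie past the upper limit.

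Scaling between libraries shifts all ratios together, so it leaves the order of the chaperones nearly untouched and decides which of them passes 2-fold. Setting the median gene to 0 lowered ratios by 0.13, and scaling to nuclear coding genes without TOP3B changed them by -0.17. Of 2 scalings added after seeing the data, leaving out short noncoding, ribosomal and mitochondrial classes changed them by -0.20. The other, scaling to estimated fragments without those classes and TOP3B, changed them by -0.28, but its fragments per gene are too high because each gene was given its principal transcript. In each of the 4 HSP90AA1 was short of 2-fold and HSPE1 past it, and HSPA4 lay below 0. HSPD1 lay above 0 in 3 of them and at -0.04 in the last.

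**Figure D5:**
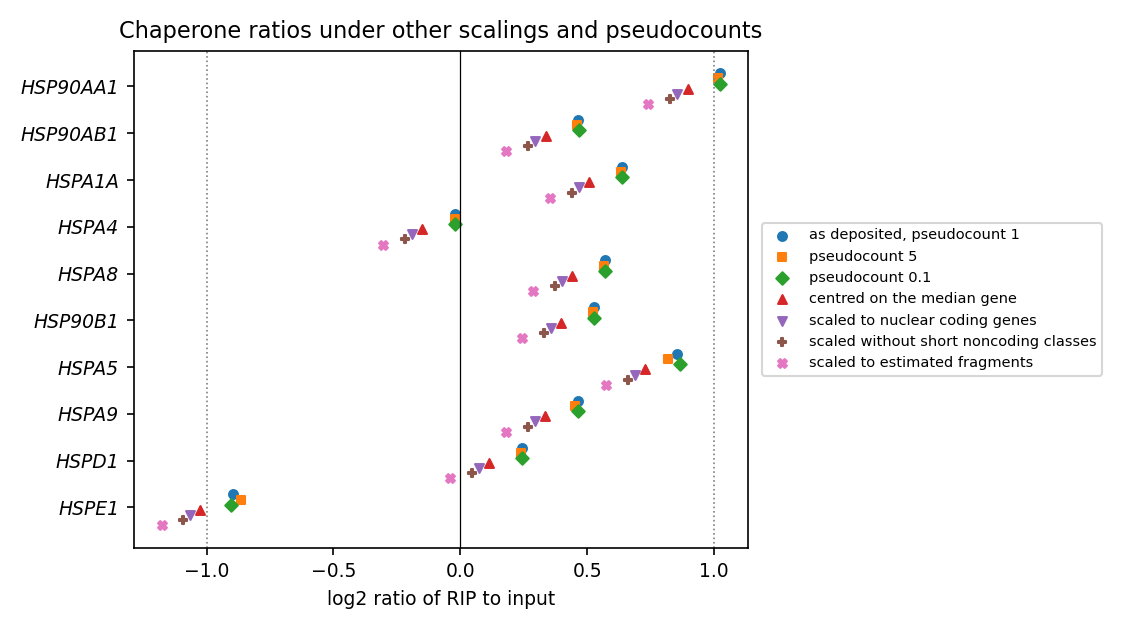
Log2 ratio of RIP to input for each chaperone under 7 settings, with dotted lines at 2-fold. The pseudocounts barely separate, and the 4 other scalings move every gene to the left, HSP90AA1 to between 0.74 and 0.90 and HSPE1 to between -1.18 and -1.02; HSPD1 crosses 0 in 1 of them.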

How the data were processed

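The authors deposited values taken here as FPKM, 1 per gene and library; the table gives no unit, and FPKM was inferred from the decimals, the column sums of 1090243 (RIP) and 1512049 (input) and the naming of RSEM in the submitters' processing notes. Those notes list, with no order or role, cutadapt 1.18 and Trimmomatic 0.3, then STAR 2.6.1 with RSEM 1.2.31, and the hg38 build. Their settings and annotation release are not stated. Groups came from the sample titles.

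Ratios used a pseudocount of 1 FPKM, a floor of 5 FPKM in at least 1 library and a limit of 2-fold. GENCODE 29 (GRCh38, the same assembly as hg38) gave positions and transcripts, matched by Ensembl identifier for 12983 of 13075 genes and all 10 chaperones. The principal transcript was the best APPRIS rank, then the longest. Depth was searched for in genes with 1 transcript, so that values give whole fragments: 65.0% of 140 genes (RIP, mean fragment 168 nt) and 63.8% of 268 genes (input, 165 nt) lay within 0.15 of a whole fragment. The range searched (up to 30 fragments a gene) was chosen after lower limits of 12 and 15 gave other depths and with an earlier estimate known, and the search was tested on simulated data. If every gene were its principal transcript, fragments would sum to 188% (RIP) and 157% (input) of these depths, so the counting intervals were moved, after this was seen, from the principal to the shortest coding transcript.

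The rule named the 10 chaperones, TOP3B, copies, the other heat shock proteins and the 2 highest and 2 lowest genes of each other list. Members and lists were chosen with earlier results of these data known. Tools were Python 3.11.15, numpy 2.4.6, scipy 1.17.1, pandas 2.3.3, biopython 1.88 and matplotlib 3.10.9.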

Additional observations from a re-analysis of the deposited data

How the results depend on the processing

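No paired analysis was possible because neither group was replicated. Scaling factors of count tools were not computed, since the values are not counts. Of the results for the 10 chaperones, 61 values under other settings stayed within counting error, the median's interval over the 10 genes or 1.5 times the count, and 48 moved. Pseudocounts of 0.1 and 5, a floor of 20 FPKM and no floor are among the former. Against 1 higher and 0 lower, the 1.5-fold limit gave 3 of 10 higher and 1 lower, beside 2386 and 1222 of 11990 genes. The 4-fold limit gave 0 higher, and each of the 4 scalings 0 higher and 1 lower. Centring gave HSP90AA1 0.895, HSP90AB1 0.337, HSPA1A 0.508, HSPA4 -0.151, HSPA8 0.441, HSP90B1 0.397, HSPA5 0.726 and HSPD1 0.113. Scaling to nuclear coding genes gave, in that order, 0.853, 0.295, 0.467, -0.191, 0.399, 0.356, 0.686 and 0.072, and HSPE1 -1.065. Leaving out short noncoding, ribosomal and mitochondrial classes (added after seeing the data) gave 0.826, 0.268, 0.439, -0.218, 0.372, 0.329, 0.659 and 0.044, and HSPE1 -1.091. Scaling to estimated fragments (added, run, set aside because its fragments per gene sum to more than the depth, and then kept since it turns the sign of HSPD1) gave 0.739, 0.181, 0.352, -0.304, 0.285, 0.242, 0.572 and -0.042, with HSPA9 at 0.18 and HSPE1 at -1.177. The median over the 10 was 0.495 as deposited and between 0.212 and 0.367 under the 4 scalings. HSPA1A summed with HSPA1B (added) gave 0.712. Over all genes, 588 higher and 300 lower became 365 and 450 by centring, 319 and 487 by scaling to coding genes, 289 and 519 without those classes, 228 and 693 by estimated fragments, 300 and 180 with pseudocount 5, and 352 and 157 with a floor of 20 FPKM. The 4-fold limit gave 79 higher and 84 lower. Depth limits HSPA9 and HSPE1 most among the chaperones if their shortest coding transcripts dominate.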
